A study of Mus musculus with 7 samples.

Results

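Müller glia, the radial glial cells that span the retina, take up glutamate and turn it into glutamine, move potassium and water from the neural tissue towards the vessels, and take part in recycling retinoid for the photoreceptors. The genes of this upkeep described here were given by name and matched to the deposited table by symbol: Glul, Slc1a3, Rlbp1, Aqp4, Kcnj10, Vim, Apoe, Clu, Dkk3 and Sox9. There are 10, all 10 are among its 12756 genes, and all 10 had at least 1 CPM (reads scaled to a library total of 1000000) in at least 3 libraries, which made them part of the 10899 genes tested.

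The libraries come from retinas of adult C57BL/6 mice of the genotype Cdh5-CreERT2 Rpl22 tm1.1Psam. They received an anti-Dll4 antibody (4 libraries) or a control IgG (3 libraries). Both groups carry the same alleles. In this system, known as RiboTag, Cre adds an HA tag to Rpl22, a protein of the large ribosomal subunit. The promoter of Cdh5, which encodes VE-cadherin, limits the Cre to endothelial cells, and ribosomes with their RNA are then pulled down through the tag. Dll4 is a ligand of Notch receptors. The comparison asks how a block of Dll4 changes the RNA on the tagged ribosomes. The sources used here give no dose, duration, route or number of animals per library, so p-values measure the spread between libraries, part of which may be technical.

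The table held 1493393 to 1771086 reads in the anti-Dll4 libraries and 1356192 to 1694586 reads in the control IgG libraries. The pulled-down RNA was not of endothelial cells alone. A list of 19 endothelial markers made up 0.421% to 0.554% of all CPM in the anti-Dll4 libraries and 0.193% to 0.286% in the control IgG libraries. A list of 16 rod markers made up 1.39% to 2.57% in the anti-Dll4 libraries and 2.86% to 3.02% in the control IgG libraries. By the design Müller glia carry no tag, and how their RNA came into the libraries was not tested. In bulk RNA, fewer cells of a type and less RNA per cell cannot be told apart.

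The 10 genes differed widely in level, and Glul stood above all others. The 3′ method used here gives about a single read position per transcript, so CPM was compared between genes without division by length. In the anti-Dll4 libraries the mean levels ran, from the highest, Glul (1334 CPM), Vim (416), Apoe (139.8), Dkk3 (123), Slc1a3 (114), Aqp4 (57.0), Rlbp1 (40.9), Clu (28.1), Kcnj10 (15.0) and Sox9 (5.65). In the control IgG libraries they ran Glul (1428 CPM), Dkk3 (101), Rlbp1 (98.7), Apoe (85.9), Vim (83.8), Slc1a3 (75.5), Aqp4 (48.7), Clu (42.0), Kcnj10 (14.6) and Sox9 (6.57). Between neighbours in this order, only Glul stood clear of the next gene in the control IgG libraries, and only Glul and then Vim in the anti-Dll4 libraries. All other neighbours had ranges over libraries that overlapped. Vim thus stood in the second place in the anti-Dll4 libraries and in the fifth in the control IgG libraries, where it could not be told from its neighbours.

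**Figure D1:**
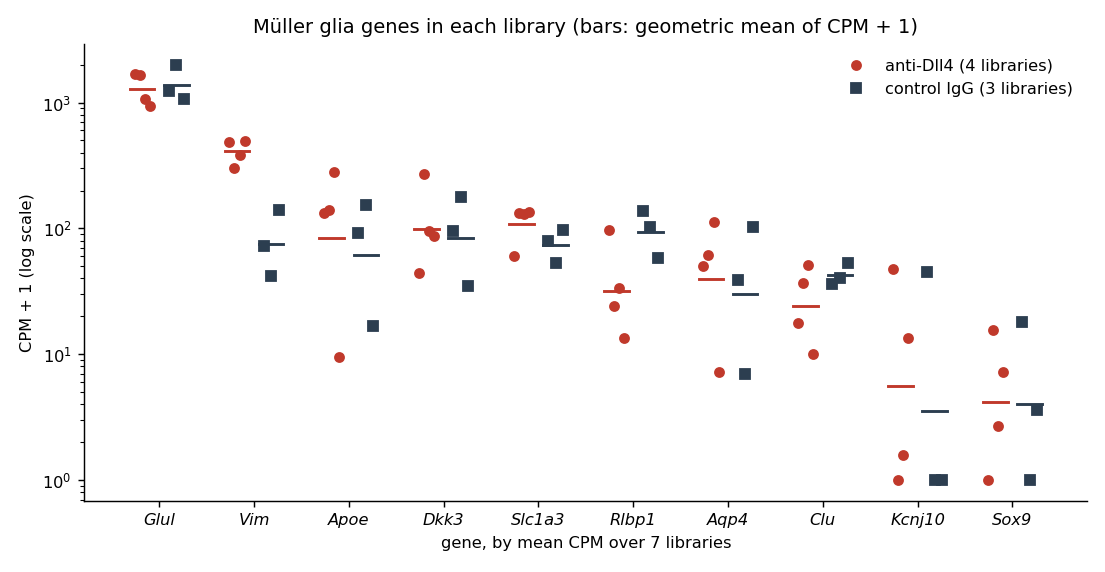
CPM + 1 on a log axis for each of the 10 genes, ordered by mean CPM over the 7 libraries. Red circles are anti-Dll4 libraries, dark squares are control IgG libraries, and bars are geometric means of CPM + 1. Vim is the single gene of the 10 whose groups do not overlap, beside 7.59% of all tested genes.

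Summed, the 10 genes took up 0.227% ± 0.0434 of all CPM in the anti-Dll4 libraries (SD, n = 4) and 0.199% ± 0.0520 in the control IgG libraries (SD, n = 3). The values were 0.261%, 0.263%, 0.214% and 0.171% in anti-Dll4 libraries 1 to 4, against 0.183%, 0.256% and 0.156% in control IgG libraries 1, 3 and 4. The groups overlapped, and the difference of 0.0288 percentage points was smaller than the spread between libraries. Without Vim the means were 0.186% ± 0.0486 in the anti-Dll4 libraries and 0.190% ± 0.0565 in the control IgG libraries. Without Glul, which alone held 49.6% to 64.4% of the sum in the anti-Dll4 libraries and 67.0% to 77.9% in the control IgG libraries, the means were 0.0939% ± 0.0128 in the anti-Dll4 libraries and 0.0557% ± 0.00537 in the control IgG libraries, a difference made mostly of Vim. Without both Glul and Vim they were 0.0523% ± 0.0201 in the anti-Dll4 libraries and 0.0473% ± 0.00982 in the control IgG libraries.

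**Figure D2:**
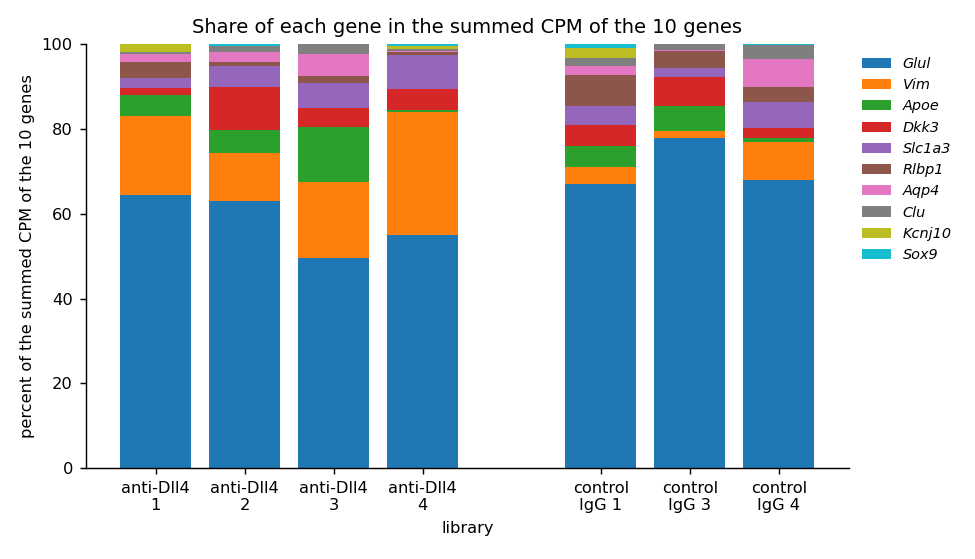
Share of each gene in the summed CPM of the 10 genes, in percent, for 4 anti-Dll4 libraries (left) and 3 control IgG libraries (right). Vim takes 11.4% to 29.1% of the sum in the anti-Dll4 libraries and 1.58% to 8.90% in the control IgG libraries.

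Each gene was compared in a limma fit over all 10899 tested genes, on the log2(CPM + 1) scale, with Benjamini-Hochberg adjustment over all of them. An adjusted p under 0.05 is called past the threshold. None of the 10 genes passed (0 of 10), beside 0.119% of all tested genes (13 genes). Vim had an unadjusted p under 0.05, the other 9 did not. The changes were positive for 7 of the 10 and negative for 3, with a median of 0.32, beside a median of -0.14 and 4964 positive of 10899 over all tested genes. The 4 anti-Dll4 and 3 control IgG libraries did not overlap for 1 of the 10 genes, Vim, beside 7.59% of all tested genes.

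**Figure D3:**
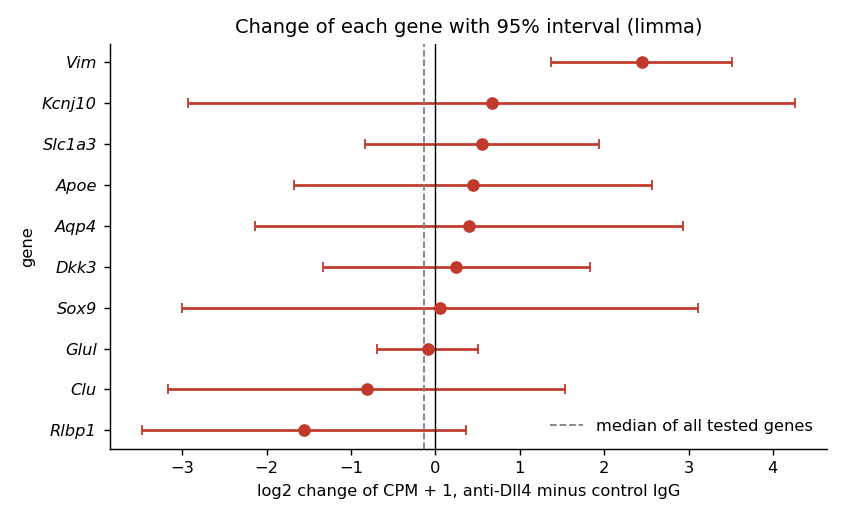
Change of each gene as the log2 of CPM + 1, anti-Dll4 minus control IgG, with the 95% interval from limma. The dashed line is the median of all tested genes (-0.14), and the interval of Vim (1.37 to 3.51) is the only one of the 10 that leaves out 0.

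Neither glutamate gene of the 10, Glul or Slc1a3, passed the test. Glul encodes glutamine synthetase, the enzyme that turns glutamate and ammonia into glutamine, and is the classical marker of Müller glia in the retina. It had 1678, 1652, 1064 and 942 CPM in anti-Dll4 libraries 1 to 4, against 1227, 1997 and 1060.3 CPM in control IgG libraries 1, 3 and 4. The groups overlapped throughout, with the highest value in control IgG 3 and the lowest in anti-Dll4 4. Its log2 change was -0.09 ± 0.29 (SE), with a 95% interval of -0.69 to 0.51 and an adjusted p of 0.965 (limma). This is the narrowest interval of the 10, and on the fold scale it runs from 0.620 to 1.42. Its width rests on the mean-variance trend of the fit, without which the SE was 0.64. The SD of the log2 values of Glul was 0.43 in the anti-Dll4 and 0.48 in the control IgG libraries. The medians for tested genes within 1.5-fold of its mean CPM were 0.41 and 0.24 in that order. By mean CPM over the 7 libraries Glul was in place 55 of the 12756 genes. The part of each cell type in the Glul values was not tested.

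Slc1a3 encodes GLAST, the main glutamate transporter of Müller glia, which clears glutamate from around synapses. It had 58.9, 133, 129 and 134 CPM in anti-Dll4 libraries 1 to 4 and 78.5, 52.4 and 95.8 CPM in control IgG libraries 1, 3 and 4. Anti-Dll4 2, 3 and 4 lay above all control IgG libraries, and anti-Dll4 1 lay among them. Its log2 change was 0.55 ± 0.67, with a 95% interval of -0.84 to 1.93 and an adjusted p of 0.893 (limma). Slc1a3 stood at 9.46% ± 4.72 of Glul CPM in the anti-Dll4 libraries and at 6.02% ± 3.22 in the control IgG libraries (SD, n = 4 and 3).

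Of a list of 14 further genes of glutamate and glutamine handling, 12 were tested and 0 passed in either direction, with a median change of -0.22. The smallest p-values were those of Slc1a2 and Got2. Slc1a2, the glutamate transporter GLT-1, which in the retina is made by neurons more than by Müller glia, had 169, 197, 75.3 and 32.7 CPM in anti-Dll4 libraries 1 to 4 and 297, 226 and 225 CPM in control IgG libraries 1, 3 and 4. All 4 anti-Dll4 libraries were below the 3 control IgG libraries, with a log2 change of -1.36 ± 0.63 (adjusted p = 0.695, limma). Got2, the mitochondrial aspartate aminotransferase, had a log2 change of -1.70 ± 1.02 (adjusted p = 0.751, limma).

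Rlbp1 encodes CRALBP, which binds 11-cis retinal and retinol in Müller glia and in the pigment epithelium. It was the gene with the largest negative change of the 10. It had 95.8, 23.2, 32.3 and 12.4 CPM in anti-Dll4 libraries 1 to 4, against 136, 102 and 57.3 CPM in control IgG libraries 1, 3 and 4. Anti-Dll4 2, 3 and 4 were below every control IgG library, and anti-Dll4 1 lay between control IgG 4 and 3. This gave a log2 change of -1.55 ± 0.92, with a 95% interval of -3.47 to 0.37 and an adjusted p of 0.751 (limma). Its change kept its sign with each library left out, at -2.09 to -1.14. The pigment epithelium is another source of Rlbp1. Of 11 markers listed for it, 4 were in the table, and they summed to 0 to 0.0128% of all CPM in the anti-Dll4 libraries and 0.00254% to 0.0157% in the control IgG libraries. Rpe65, the isomerase that defines that cell type, had 0, 1, 0 and 8 reads in anti-Dll4 libraries 1 to 4 and 0, 2 and 0 reads in control IgG libraries 1, 3 and 4. The other 3 reached higher values in single libraries, with Rdh5 at 77.6 CPM and Pmel at 40.8 CPM in anti-Dll4 3, and Ttr at 128 CPM in control IgG 3. The part of these cells in the Rlbp1 values was not tested.

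Of 13 other visual cycle genes 8 were tested and 0 passed, with 4 positive and 4 negative changes and a median of -0.04. Those with the smallest p were Rdh12, a retinol dehydrogenase of photoreceptors, at -2.44 ± 1.52 (adjusted p = 0.761, limma), and Dhrs3, a retinal reductase, at 2.07 ± 1.57 (adjusted p = 0.812, limma). Rdh12 ranged from 1 to 384 reads among the anti-Dll4 libraries.

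The water and potassium channels varied more between libraries than between groups. Aqp4 encodes aquaporin-4, the water channel of glial endfeet. It had 49.6, 60.5, 112 and 6.21 CPM in anti-Dll4 libraries 1 to 4 and 37.8, 5.90 and 102 CPM in control IgG libraries 1, 3 and 4. Each group had a library near 6 CPM and a library above 100 CPM. The log2 change was 0.40 ± 1.22 (95% interval -2.14 to 2.93, adjusted p = 0.963, limma).

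Kcnj10 encodes Kir4.1, the inward rectifier through which Müller glia take up and release potassium. It had 70, 0, 1 and 22 reads in anti-Dll4 libraries 1 to 4 and 74, 0 and 0 reads in control IgG libraries 1, 3 and 4. The 2 libraries with the most reads, at 46.9 CPM in anti-Dll4 1 and 43.7 CPM in control IgG 1, came from different groups. A count of 0 allows up to 3 reads, equal to 1.69 to 2.01 CPM in the anti-Dll4 libraries and 1.77 to 2.21 CPM in the control IgG libraries, and covers counting error only. Such patterns were usual at this level. Among 2117 tested genes with a mean CPM within 1.5-fold of that of Kcnj10, 92.3% likewise had a library with at most 3 reads and another with at least 30 reads. The log2 change of Kcnj10 was 0.67 ± 1.73 (adjusted p = 0.957, limma), and its 95% interval, -2.93 to 4.26, was the widest of the 10.

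Of 12 partners of these channels, 8 were tested and 0 passed, with a median change of 0.20. Atp1b2, a beta subunit of the sodium pump that photoreceptors also make, had 393, 605, 188 and 346 CPM in anti-Dll4 libraries 1 to 4 and 791, 867 and 549 CPM in control IgG libraries 1, 3 and 4. Its log2 change was -1.03 ± 0.39 (adjusted p = 0.625, limma). Dmd, the gene of dystrophin, whose short form Dp71 anchors both channels at Müller endfeet, had a change of 0.71 ± 0.67 (adjusted p = 0.862, limma).

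Vim was the only one of the 10 whose groups did not overlap, beside 7.59% of all tested genes. It encodes vimentin, the intermediate filament protein of Müller glia, which endothelial cells, astrocytes and mural cells make as well. It had 485, 299, 382 and 498 CPM in anti-Dll4 libraries 1 to 4, against 72.0, 40.6 and 139 CPM in control IgG libraries 1, 3 and 4. The lowest anti-Dll4 library was above the highest control IgG library. The means were 416 ± 93.7 CPM in the anti-Dll4 libraries (SD, n = 4) and 83.8 ± 50.2 CPM in the control IgG libraries (SD, n = 3), a ratio of 4.97. On the log2 scale the change was 2.44 ± 0.51 with a 95% interval of 1.37 to 3.51, an unadjusted p of 0.000108 and an adjusted p of 0.0656 (limma), in place 18 of 10899 by p and short of the threshold. It passed without control IgG 4 (adjusted p = 0.0405, limma), and with the filter raised to 10 CPM (adjusted p = 0.0431, limma). It missed the threshold in the other 17 of 19 alternative fits. The adjusted p (limma) was 0.562 without the mean-variance trend and 0.514 with the mean of rod markers as covariate. Its highest value was 0.628, with a replicate block on title numbers. The change was positive in all 19, from 0.98 with libraries scaled on endothelial markers to 2.89 without control IgG 4. As the groups did not overlap, leaving out a library could not turn its sign.

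Vim was set beside other RNA of the same libraries. As a percent of Glul CPM, Vim was at 28.9%, 18.1%, 35.9% and 52.9% in anti-Dll4 libraries 1 to 4 and at 5.87%, 2.03% and 13.1% in control IgG libraries 1, 3 and 4. The groups did not overlap on this ratio. As a percent of the summed CPM of the endothelial markers, it was at 10.8%, 7.11%, 6.91% and 10.7% in anti-Dll4 libraries 1 to 4 and at 3.60%, 1.42% and 7.18% in control IgG libraries 1, 3 and 4. On this ratio the groups overlapped, with control IgG 4 above anti-Dll4 2 and 3. The 19 markers were not a fixed measure, as 16 had positive and 3 negative log2 changes, from -1.32 to 3.93. Of these markers Ly6c1 alone passed the threshold itself (log2 change 2.06, adjusted p = 0.0319, limma). For Glul the same ratio to endothelial markers was 29.0% ± 10.8 in the anti-Dll4 libraries and 62.0% ± 7.44 in the control IgG libraries (SD, n = 4 and 3), without overlap. The sum of endothelial markers and Vim were both above, and the sum of rod markers below, every control IgG library in the same 4 libraries, and the part of the endothelial RNA in the Vim values was not tested.

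**Figure D4:**
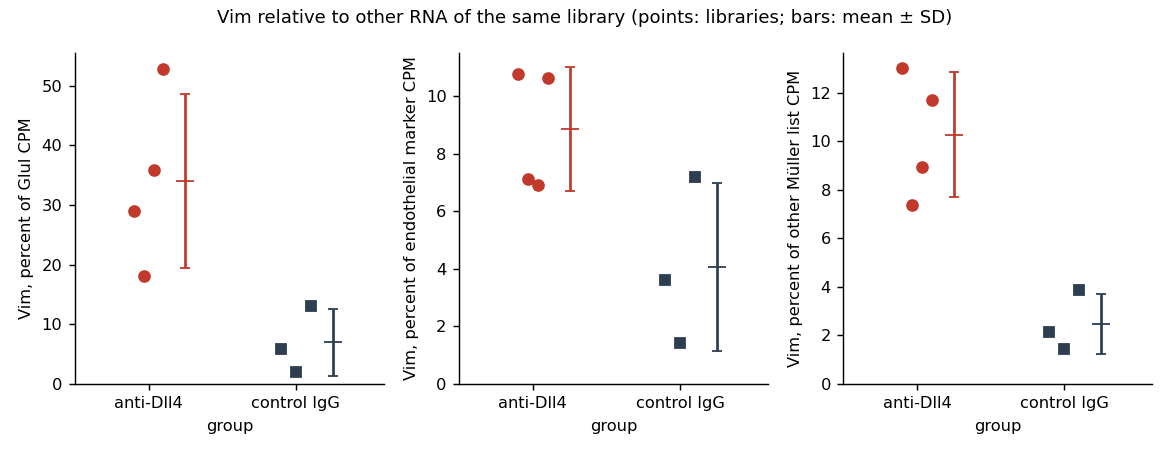
Vim CPM as a percent of Glul CPM (left), of the summed CPM of 19 endothelial markers (middle) and of the summed CPM of other Müller glia genes (right), for each library, with mean ± SD. The groups are apart in the left and right panels and overlap in the middle one.

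Markers of astrocytes and mural cells, which also make Vim, were present at levels that varied between libraries. Of 6 astrocyte markers 3 were in the table. Gfap, the intermediate filament of astrocytes and of reactive Müller glia, had 0, 0, 9 and 7 reads in anti-Dll4 libraries 1 to 4 and 0 reads in each control IgG library. S100b, a calcium-binding protein, had 0, 0, 0 and 2 reads in anti-Dll4 libraries 1 to 4 and 0, 87 and 48 reads in control IgG libraries 1, 3 and 4. Gja1, the gap junction protein connexin 43, had 1, 4, 192 and 11 reads in anti-Dll4 libraries 1 to 4 and 2, 0 and 7 reads in control IgG libraries 1, 3 and 4. The astrocyte list summed to between 6.7e-05% and 0.0114% of all CPM in the anti-Dll4 libraries and between 0.000118% and 0.00642% in the control IgG libraries. Of 11 mural cell markers 8 were in the table, and they summed to 0.0130% to 0.0495% in the anti-Dll4 libraries and 0.0153% to 0.0241% in the control IgG libraries. The highest mural sum was in anti-Dll4 3, where Tagln, an actin-binding protein of smooth muscle, had 323 CPM. The part of these cells in the Vim values was not tested. Among 12 other intermediate filament genes 9 were tested and 0 passed, with 2 positive and 7 negative changes and a median of -0.60. Lmnb1, a nuclear lamin, had a log2 change of -0.59 ± 0.44 (adjusted p = 0.802, limma) and Nefh, the heavy neurofilament subunit of ganglion cells, -2.17 ± 1.71 (adjusted p = 0.819, limma).

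The secreted proteins showed no common direction. Apoe encodes apolipoprotein E, which Müller glia, astrocytes and microglia release in lipoprotein particles. It had 133, 139, 279 and 8.47 CPM in anti-Dll4 libraries 1 to 4 and 90.3, 152 and 15.6 CPM in control IgG libraries 1, 3 and 4. Both groups had a single low library, and the other libraries lay between 90.3 and 279 CPM. The SD of its log2 values, 2.15 in the anti-Dll4 and 1.67 in the control IgG libraries, exceeded the median SD of tested genes within 1.5-fold of its level, which was 0.92 in the anti-Dll4 and 0.66 in the control IgG libraries. Apoe had a log2 change of 0.45 ± 1.02 (95% interval -1.67 to 2.57, adjusted p = 0.95, limma). Microglia markers in the table, 6 of 12 listed, summed to 0.00294% to 0.0279% of all CPM in the anti-Dll4 libraries and 0.00354% to 0.0115% in the control IgG libraries, and their part in the Apoe values was not tested.

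Clu encodes clusterin, an extracellular chaperone also known as apolipoprotein J. It had 16.7, 36.1, 50.4 and 9.03 CPM in anti-Dll4 libraries 1 to 4 and 34.8, 39.1 and 52.1 CPM in control IgG libraries 1, 3 and 4. The control IgG libraries were close together, with an SD of 0.29 log2 units beside a median of 1.43 for tested genes of like level, and 2 anti-Dll4 libraries were below all of them. Clu had a log2 change of -0.81 ± 1.13 (95% interval -3.17 to 1.54, adjusted p = 0.91, limma). Of 12 lipoprotein receptors and lipid exporters 10 were tested and 0 passed, with a median change of -0.12. Vldlr, a receptor that also binds the signalling protein reelin, had the smallest p, with a change of -1.31 ± 1.36 (adjusted p = 0.872, limma).

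Dkk3 encodes a secreted glycoprotein of the Dickkopf family, of which some other members block Wnt co-receptors. It had 42.9, 267, 94.6 and 85.8 CPM in anti-Dll4 libraries 1 to 4 and 93.8, 175 and 33.9 CPM in control IgG libraries 1, 3 and 4. Its highest value was in anti-Dll4 2, and the remaining libraries of both groups were intermixed. The log2 change was 0.25 ± 0.76 (95% interval -1.33 to 1.83, adjusted p = 0.963, limma). Of the other Dickkopf genes and the Kremen receptors, 3 of 6 were tested and 0 passed. Kremen1, a Dickkopf receptor, had 27, 27, 90 and 10 reads in anti-Dll4 libraries 1 to 4 and 1, 0 and 3 reads in control IgG libraries 1, 3 and 4. Its groups did not overlap, with a log2 change of 3.46 ± 1.58 (adjusted p = 0.695, limma). Kremen2 had a change of 0.69 ± 1.34 (adjusted p = 0.94, limma).

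Sox9, a transcription factor of Müller glia and astrocytes, was the lowest of the 10. It had 0, 24, 3 and 11 reads in anti-Dll4 libraries 1 to 4 and 29, 0 and 4 reads in control IgG libraries 1, 3 and 4. In each group the reads came mostly from a single library or a pair, and both groups held a library at 0. The log2 change was 0.05 ± 1.47 (adjusted p = 0.995, limma), and its 95% interval of -3.00 to 3.11 held changes of several fold either way. Of 5 further Sox factors of glia only Sox2 was tested, at 1.02 ± 1.45 (adjusted p = 0.912, limma).

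Among themselves the 10 genes did not vary as a block. Anti-Dll4 4 had the lowest value of its group for 5 of the 10 genes (Glul, Apoe, Rlbp1, Aqp4 and Clu) and the highest for Vim and Slc1a3. In control IgG libraries, control IgG 3 had the highest values of Glul, Apoe and Dkk3 and the lowest of Vim, Slc1a3 and Aqp4. Without anti-Dll4 4 the log2 change of Apoe was 1.5, against 0.45 with all libraries, and that of Aqp4 was 1.22, against 0.40. Without control IgG 4, that of Apoe was -0.49 and that of Aqp4 was 1.29, and without control IgG 3 that of Aqp4 was -0.67. Of the genes, 8 of 10 had more than 3 reads in every library, which held for 43.0% of all tested genes.

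A wider list of 26 Müller glia genes, fixed beside the 10 and likewise chosen with earlier results of these data known, had 24 tested members. None passed (0 of 24), beside 0.119% of all tested genes. The changes were positive for 19 and negative for 5, with a median of 0.88. Over all tested genes 4964 of 10899 were positive, with a median of -0.14. Their summed CPM was 0.408% ± 0.0255 of the library in the anti-Dll4 libraries (SD, n = 4) and 0.326% ± 0.0406 in the control IgG libraries (SD, n = 3), without overlap. Of the 24 genes only Id3 had groups that did not overlap, beside 7.59% of all tested genes. Its means were 578 CPM in the anti-Dll4 and 256 CPM in the control IgG libraries. Id3 held a part of the gap between the sums, and 5 of the 24 genes had negative changes. Several genes of the list, such as Id3, Hes1, Cd9, Cd44 and Nfib, are made by endothelial cells as well, and the part of each cell type in these values was not tested. Id3, an inhibitor of bHLH transcription factors, had the smallest p. It had 420, 634, 502 and 758 CPM in anti-Dll4 libraries 1 to 4 and 151, 406 and 210 CPM in control IgG libraries 1, 3 and 4. Its log2 change was 1.26 ± 0.41 (adjusted p = 0.412, limma). Nfib, a nuclear factor I protein of late retinal progenitors and glia, had a change of 1.74 ± 0.75 (adjusted p = 0.69, limma). As a percent of the summed CPM of this list, Vim was at 10.3% ± 2.58 in the anti-Dll4 libraries and 2.48% ± 1.24 in the control IgG libraries, without overlap, and Glul at 33.2% ± 11.4 in the anti-Dll4 libraries and 45.7% ± 22.3 in the control IgG libraries, with overlap.

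The genes with patterns nearest to Glul and Vim were sought among 4303 other genes with a mean of at least 50 CPM, by the root-mean-square difference of log2(CPM + 1), each gene centred on its own mean over the 7 libraries. Nearest to Glul were Chmp7 (0.15 log2 units), Samsn1 (0.15) and Arnt (0.23), where the median gene was 0.97 away. Chmp7 encodes a protein of the ESCRT-III membrane machinery and had 61.0 ± 19.7 CPM in the anti-Dll4 libraries and 64.5 ± 23.3 CPM in the control IgG libraries. Nearest to Vim were Rtcb (0.31), Dstn (0.32) and Necap1 (0.32), where the median gene was 1.61 away. Rtcb, the tRNA ligase, had 192 ± 57.1 CPM in the anti-Dll4 libraries and 39.3 ± 21.1 CPM in the control IgG libraries. Dstn, the actin-depolymerizing protein destrin, had 240 ± 58.9 CPM in the anti-Dll4 libraries and 58.5 ± 52.8 CPM in the control IgG libraries. With so many candidates and 7 libraries, near patterns are a description of these libraries alone.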

How the data were processed

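Ribosome-bound polyadenylated RNA was made into QuantSeq 3′ libraries, per the labels' protocols. Per the submitters' processing notes, cutadapt, TopHat2 and bedtools were used (without versions or roles), and the build is named hg19, although the symbols are those of mouse genes, so no coordinates are given. Counting rule, annotation and strand: not given in the sources used here. In GENCODE M21, Glul, Slc1a3 and Aqp4 overlap other annotated genes, none of them among the deposited genes. The values deposited by the authors are log10 of CPM + 1. Turned back, they summed to 1000000 CPM per library, and 100% were whole multiples of 1 read (tolerance 1e-06), which gave the reads.

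The name of 1 column, here control IgG 1, shows its group but no title with that number, so it served as an unnumbered control. Values were converted to log2(CPM + 1) and fitted across all genes that reached 1 CPM in 3 or more libraries with limma 3.58.1 in R 4.3.3 (empirical Bayes, mean-variance trend, two-sided, Benjamini-Hochberg). The fixed design had not named log10 as the scale, and the conversion kept its test. The fit was tested on simulated data with known changes and noise independent between genes. Unlike these libraries, the simulated ones held no shift of endothelial or rod RNA between groups, so they check the code alone. The genes and lists were chosen with earlier results of these data known. The text names the 10 genes, from each list the members past the threshold or else the 2 with the smallest p, and the 3 genes nearest to Glul and to Vim. Of the genes so named, 1 is not reported. Others were chosen after their values were seen. Alternatives were another pseudocount, filter, scaling, covariate, replicate block, voom on whole reads, no trend, and leaving out each library.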

Additional observations from a re-analysis of the deposited data

Results flagged for a closer look

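Slc1a3 had 58.9 CPM in anti-Dll4 1, far below the 129 to 134 CPM of the other anti-Dll4 libraries. Its gap to the nearest of them was 0.93 of the range of the group, above Dixon's 95% critical value of 0.829 for 4 values. The rule was applied to the 10 genes and their sum in the 4 anti-Dll4 libraries, and not to the control IgG libraries. By chance it marks about 1 group in 20.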

How the results depend on the processing

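With 3 and 4 noisy libraries, changes of the low genes could not be resolved. Vim kept a positive change in all 19 alternatives, and so Rlbp1 and Clu a negative one. These fits reuse the same 7 libraries, and several keep the same estimate, so their number does not count independent results. Neither Rlbp1 nor Clu passed the threshold in any of them. The 13 genes called were 0 without the mean-variance trend, 38 with voom on whole reads (14 higher and 24 lower), 7 with upper-quartile scaling and 3 with the mean of rod markers as covariate. They were 588 (1 higher, 587 lower, Glul among them at -1.56) with libraries scaled on endothelial markers and 0 on the other Müller glia genes. With a library left out there were 3 to 20. Those scalings moved the median change of all genes to -1.41 and -0.75. Same-numbered libraries deviated together only weakly (correlations 0.05, 0.05 and 0.07 across genes), although 6 of 6 correlated best with their own number. A replicate block on title numbers gave 3 calls and on column numbers 4. Only libraries whose number occurs in both groups inform the change in such a fit. These were numbers 3 and 4 by title, and 1, 3 and 4 by column.

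Signs turned as follows. Scaled on endothelial markers, the log2 changes were -0.90 for Slc1a3, -1.02 for Aqp4, -0.97 for Apoe, -0.93 for Sox9 and -1.20 for Dkk3. Scaled on the other Müller glia genes they were -0.17, -0.28, -0.26, -0.35 and -0.47 in that order. With the rod covariate Glul was at 0.22 and Aqp4 at -0.18. Sox9 was at -0.026 with a pseudocount of 5 CPM, -0.017 with upper-quartile scaling and -0.58 with the replicate block on column numbers, which put Dkk3 at -0.23. With a library left out, Glul ran from -0.28 to 0.18, Aqp4 from -0.67 to 1.29, Kcnj10 from -0.36 to 2.49, Apoe from -0.49 to 1.5, Sox9 from -0.95 to 1.14 and Dkk3 from -0.38 to 0.79. The cause was not tested. Sox9 gave no value with the filter at 10 CPM. The summed share of the 10 genes differed by 0.00746 to 0.0577 percentage points with a library left out.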
